A study of Mus musculus with 9 samples.

Results

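Brain microvascular endothelial cells line the capillaries of the brain and carry its blood-brain barrier, and 3 h without oxygen, glucose and serum is an early stage of a culture model of ischemia. The 3 RNA-seq libraries of that time are described here, out of 9 in the series: oxygen-glucose deprivation with fetal bovine serum also withdrawn (OGD), the same deprivation with 3 µM obacunone, a limonoid from citrus fruit (OGD+Oba), and normoxia. All 3 come from wild-type (WT) mouse cells that the labels give as the cell line MBMECs. OGD and OGD+Oba were set together against normoxia as a pair of deprived libraries, so each difference below is an average over deprivation with and without obacunone. The deposited table lists 675 genes, and the 580 whose FPKM (fragment counts corrected for transcript length and library size) averaged 1 or more across all 9 libraries were tested. Each group holds 1 library, and the estimate of the spread came from the OGD and OGD+Oba pairs of all 3 times.

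Hypoxia-inducible factor (HIF) is held down in oxygen by prolyl hydroxylases of the EGLN family, which mark its alpha subunit for the VHL ubiquitin ligase. Without oxygen the factor accumulates, binds the core letters ACGTG or GCGTG in promoters and enhancers, and turns on genes of angiogenesis, glucose uptake, glycolysis, glycogen storage and its own feedback. Loss of serum relieves FOXO factors from growth factor signalling, and loss of glucose lowers genes driven by the sugar-sensing factors MondoA and ChREBP, of which Txnip is the best known. Immediate early genes such as Egr1 and Fos are switched on within minutes by serum, growth factors or stress and then decay.

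The table is a selection. In the authors' deposited table all 675 genes have a 6 h log2 ratio, OGD over normoxia, of at least 1 in size, with 350 higher and 325 lower, so the libraries of 3 h took no part in the choice, but genes that did not move by 6 h are not analysed here. Summed FPKM over the listed genes came to 17948 in the OGD library and 18304 in the OGD+Oba library, against 15114 in the normoxia library, and between 14198 and 22631 over the 9 libraries. These sums are not depths. Sequencing depth is unknown here, which leaves counting error unmeasured. In bulk RNA, fewer cells of a kind and less RNA per cell cannot be told apart.

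The label of endothelial cells could be checked on few markers. Of 19 endothelial markers 2 are in the table. The endothelial VEGF receptor Flt1 stood at 0.05 FPKM under OGD and 0.06 FPKM under OGD+Oba at 3 h, against 0.37 FPKM in normoxia, and stayed below 1 FPKM in all 9 libraries. Slc2a1, the glucose transporter of the barrier, stood at 315 FPKM under OGD and 333 FPKM under OGD+Oba, against 108 FPKM in normoxia, but is expressed by many other cells. An epithelial marker, the claudin gene Cldn4, was abundant, at 271 and 260.2 FPKM in the OGD and OGD+Oba libraries, against 97.6 FPKM in normoxia. The 1 neuronal marker in the table, Tubb3, was lower, at 3.43 and 3.47 FPKM in the OGD and OGD+Oba libraries, against 10.7 FPKM in normoxia. Other defining markers were not analysed here, and the part of cell composition in the results was not tested.

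Of the 580 tested genes, 356 (61.4%) differed between the deprived pair and normoxia at 3 h by limma on log2(FPKM + 1), at a Benjamini-Hochberg adjusted p under 0.05. They split into 190 higher (32.8%) and 166 lower (28.6%) in deprivation. The lone normoxia library is assumed in that fit to vary like the deprived pairs. The spread behind the p-values is how far the difference between OGD+Oba and OGD varied over the times. Each group holds 1 library, so it is not a spread between replicates, and part of it may be technical. The median size of a called difference was 0.96 on the log2 scale for the higher genes and -0.77 for the lower ones, and the median over all tested genes was 0.05. Summed over the genes called higher, FPKM came to 12633 under OGD and 12804 under OGD+Oba, against 5434 in normoxia. Summed over those called lower, it came to 3309 under OGD and 3401 under OGD+Oba, against 7685 in normoxia. Without any model of the spread, 110 genes (19%) were at least 2-fold from normoxia in the same direction in both deprived libraries, 77 higher (13.3%) and 33 lower (5.69%).

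**Figure D1:**
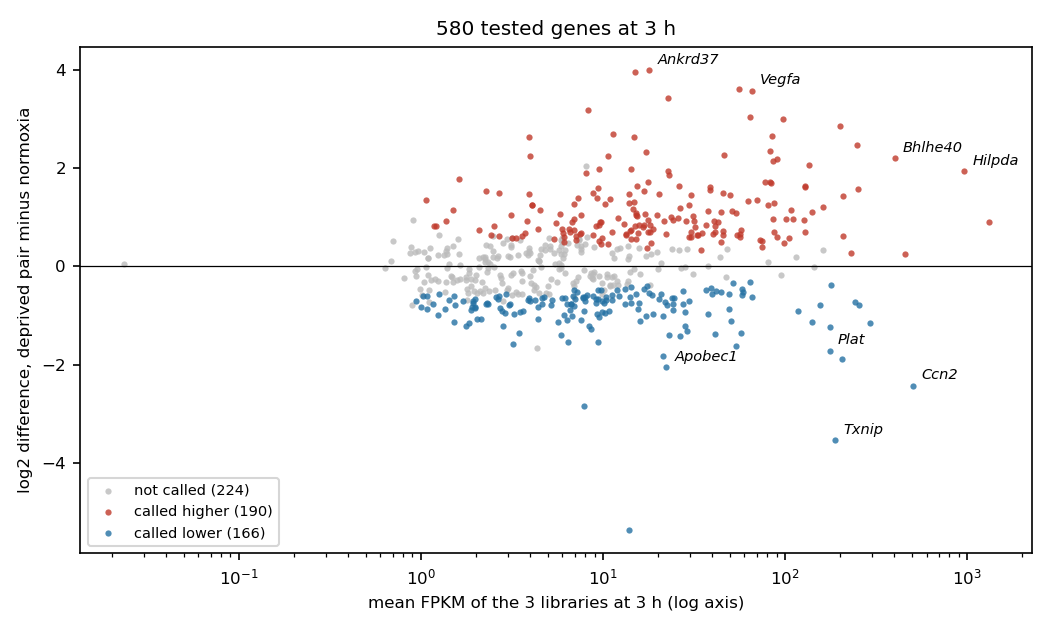
Log2 difference at 3 h, deprived pair minus normoxia, against the mean FPKM of the 3 libraries (log axis) for the tested genes; colours mark the 190 genes called higher, the 166 called lower and the 224 not called by limma. The largest positive differences belong to Ankrd37, Ppp1r3c, Egr1 and Vegfa, and Txnip and Ccn2 are abundant genes far below 0. H3c14, listed at 0 in all 3 libraries, cannot be drawn on the log axis.

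The direction at 3 h mostly matched that at 6 h. Of the 316 tested genes that the authors list as higher at 6 h, 190 (60.1%) were called higher at 3 h and 2 (0.633%) lower. Of the 264 listed as lower, 164 (62.1%) were called lower and none was called higher. The 2 exceptions were the chemokine genes Cxcl10 and Ccl2. The median log2 difference at 3 h was 0.64 over the genes listed as higher and -0.62 over those listed as lower. Counts and medians of list members below are best read against these shares and medians. Many lists entered the table with members of 1 direction only. All tested HIF-1 targets, HIF pathway components, 2-oxoglutarate enzymes and angiogenic ligands were listed as higher at 6 h. So were all those of glycolysis, glycogen, lipid droplets, autophagy, the clock and the dioxin receptor. The tested members are the part of each list that was chosen at 6 h, so a count does not speak for the whole list.

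HIF-1 targets were higher throughout. Of 55 listed genes 32 are in the table and 31 were tested, and all 31 were called higher, 20 of them at least 2-fold in both deprived libraries. Their median log2 difference was 1.53, against 0.05 over all tested genes and 0.64 over the tested genes that the authors list as higher at 6 h. All 31 are also listed as higher at 6 h. Against the mean of the 3 normoxia libraries of 1, 3 and 6 h, whose spread then enters the error, 27 were called. The remaining member in the table, the vasodilator peptide gene Adm, was too low to test, at 1.55 and 1.25 FPKM in the OGD and OGD+Oba libraries, and was listed at 0 in normoxia.

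Ankrd37, an ankyrin repeat gene known as a direct HIF-1 target, had the largest positive difference. It is NCBI gene 654824, at chromosome 8, 45996908 to 46000414 (GRCm38.p6). It stood at 29.7 FPKM under OGD and 23.6 FPKM under OGD+Oba, against 0.71 FPKM in normoxia, a log2 difference of 4.004 ± 0.21 (SE over the fit; limma, adjusted p = 4.3e-06). Ppp1r3c, which targets protein phosphatase 1 to glycogen (gene 53412, chromosome 19, 36731731 to 36736604), stood at 22.9 FPKM under OGD and 21.7 FPKM under OGD+Oba, against 0.50 FPKM in normoxia, a difference of 3.96 ± 0.18 (limma, adjusted p = 2.47e-06). In both genes the normoxia library was below 1 FPKM and the deprived libraries lay close together, so the log2(FPKM + 1) scale understates the change.

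Promoter letters are shown for 3 of these targets and for Txnip, which fell most among the genes that are not predicted ones, because the HIF core stands in all 4 windows while the genes moved in opposite directions. Each line is the 250 bases before a RefSeq start site of GRCm38.p6, written 5′ to 3′ on the gene's strand, with ACGTG or GCGTG on either strand in capitals.
Ankrd37, chr8:45999851-46000100, minus strand: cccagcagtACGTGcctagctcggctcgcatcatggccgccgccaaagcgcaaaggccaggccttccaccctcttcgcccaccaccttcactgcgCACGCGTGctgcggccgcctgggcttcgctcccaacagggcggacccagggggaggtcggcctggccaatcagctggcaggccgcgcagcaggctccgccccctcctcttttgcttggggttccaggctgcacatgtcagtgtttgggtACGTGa
Ppp1r3c, chr19:36736605-36736854, minus strand: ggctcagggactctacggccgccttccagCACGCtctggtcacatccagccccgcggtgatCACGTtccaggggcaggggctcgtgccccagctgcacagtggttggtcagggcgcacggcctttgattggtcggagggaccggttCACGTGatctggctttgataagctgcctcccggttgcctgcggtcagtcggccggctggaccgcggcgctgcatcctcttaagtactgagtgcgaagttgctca
Cited2, chr10:17722978-17723227, plus strand: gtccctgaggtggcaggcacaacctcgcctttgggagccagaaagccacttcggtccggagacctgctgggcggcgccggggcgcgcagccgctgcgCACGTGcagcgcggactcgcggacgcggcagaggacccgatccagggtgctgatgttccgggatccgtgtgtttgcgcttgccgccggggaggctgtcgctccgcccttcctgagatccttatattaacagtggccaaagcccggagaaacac
Txnip, chr3:96557707-96557956, plus strand: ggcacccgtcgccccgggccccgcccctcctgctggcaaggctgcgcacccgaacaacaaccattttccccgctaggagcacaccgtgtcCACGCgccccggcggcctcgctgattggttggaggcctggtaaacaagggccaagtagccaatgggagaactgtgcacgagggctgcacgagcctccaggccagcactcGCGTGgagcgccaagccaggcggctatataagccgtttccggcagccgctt
The Ankrd37 window holds 4 cores, starting at -241, -155, -152 and -6 from the start site, of which the middle pair overlap. The Ppp1r3c window also holds 4, at -221, -189, -104 and -103, and the Cited2 window 2, at -153 and -152. The last 2 of Ppp1r3c and the 2 of Cited2 are each 1 palindrome, CACGTG, read on both strands, which is also the E-box. Txnip holds 2, at -160 and -51. Of the leading HIF-1 targets not shown, Efna1 holds no core in its windows. Vegfa holds none in the window chr17:46032378-46032627 and 2 in the window chr17:46025164-46025413. The second of these lies inside the span of the gene, before an inner RefSeq start site. The Ankrd37 window likewise lies inside the span given above for that gene. A match describes the letters and is not evidence of binding.

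HIF pathway components are the factor's own controls, and all 5 tested members were called higher, with a median log2 difference of 2.08. All but Vhl are also HIF-1 targets counted above. Cited2, which competes with HIF for the coactivator CBP/p300, stood at 135 FPKM under OGD and 141 FPKM under OGD+Oba, against 16.2 FPKM in normoxia, a difference of 3.01 ± 0.10 (limma, adjusted p = 6.76e-07). The prolyl hydroxylase Egln3 stood at 182 and 185 FPKM in the OGD and OGD+Oba libraries, against 42.7 FPKM in normoxia, a difference of 2.08. Egln1, the main oxygen sensor, was 55.9 and 53.2 FPKM in the OGD and OGD+Oba libraries, against 24.6 FPKM in normoxia. Vhl, the substrate receptor of the HIF ubiquitin ligase, was 38.3 FPKM under OGD and 35.9 FPKM under OGD+Oba, against 14.98 FPKM in normoxia. Each of these genes was about as high with obacunone as without it, and each deprived value lay above all 3 normoxia libraries.

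The wider family of 2-oxoglutarate enzymes uses the same cofactors as the EGLN hydroxylases. Of its 9 tested members 7 were called higher and none lower, with a median of 0.93. Of the 7, all but Alkbh5 are also HIF-1 targets counted above. The histone demethylase Kdm3a rose by 1.46 ± 0.15 (limma, adjusted p = 0.000149), with 34.2 and 44.3 FPKM in the OGD and OGD+Oba libraries, against 13.5 FPKM in normoxia. Jmjd6, Kdm4b and P4ha1, which hydroxylates collagen, rose by 0.97, 0.74 and 0.63, and the RNA demethylase Alkbh5 by 0.93. P4ha1 was not called against the 3 normoxia libraries (limma, adjusted p = 0.176). The DNA demethylase Tet2 was not called, at 3.30 FPKM under OGD and 6.54 FPKM under OGD+Oba, against 5.83 FPKM in normoxia. Nor was Ogt, a glycosyltransferase that the list holds as a partner of the TET enzymes, at 23.4 FPKM under OGD and 40.0 FPKM under OGD+Oba, against 23.6 FPKM in normoxia. In both of these genes the 2 deprived libraries lay further apart than their mean lay from normoxia.

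**Figure D2:**
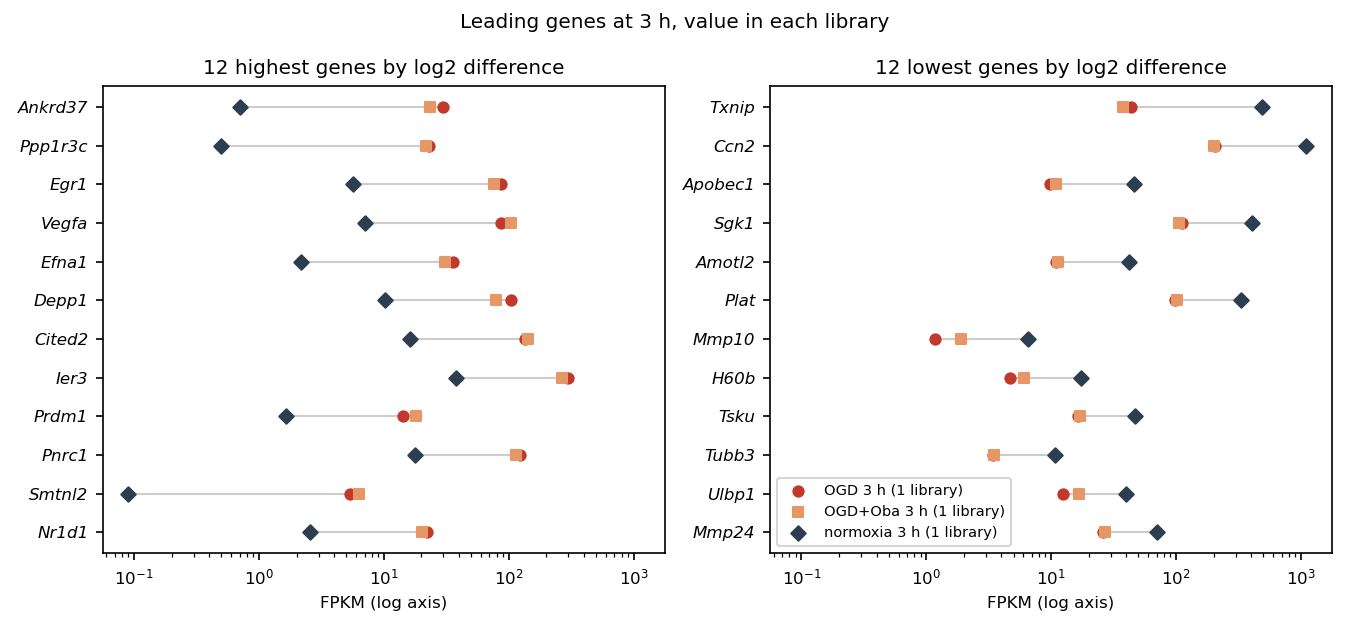
FPKM (log axis) for the top 12 and bottom 12 genes by log2 difference at 3 h, predicted genes passed over, in the OGD, OGD+Oba and normoxia libraries (1 point per library). In all 24 genes the 2 deprived points lie near each other and on 1 side of the normoxia point, from Smtnl2 at 0.09 FPKM in normoxia to Ccn2 at 1108 FPKM.

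Angiogenic ligands were among the largest changes. Vegfa, the main endothelial growth factor (gene 22339, chromosome 17, 46016993 to 46032377), stood at 86.9 FPKM under OGD and 104 FPKM under OGD+Oba, against 7.01 FPKM in normoxia, a difference of 3.58 ± 0.16 (limma, adjusted p = 2.27e-06). Efna1, an ephrin ligand induced in endothelium by cytokines and hypoxia, stood at 35.7 and 30.7 FPKM in the OGD and OGD+Oba libraries, against 2.15 FPKM in normoxia, a difference of 3.44 ± 0.16. Areg, a ligand of the EGF receptor, was called higher by 0.66 ± 0.19 (limma, adjusted p = 0.0194), but its normoxia library of 1 h held 7.22 FPKM, as much as the OGD library of 3 h with 7.06 FPKM. All 3 tested members of the list were called higher, with a median of 3.44. Vegfa and Efna1 are also HIF-1 targets counted above. Areg lost its call against the 3 normoxia libraries and in a fit of the 3 h libraries alone.

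Glucose handling moved unevenly. Slc2a1 rose by 1.58 ± 0.08 (limma, adjusted p = 4.3e-06), while Tfrc, the transferrin receptor that shares its list of barrier transporters, was not called, at 79.4 and 85.5 FPKM in the OGD and OGD+Oba libraries, against 77.3 FPKM in normoxia. Of 7 tested glycolytic genes 4 were called higher and none lower, with a median of 0.38. All 7 were listed as higher at 6 h, so the count of 4 is no more than the choice of the table would give. Of the 4, all but Pfkl are also HIF-1 targets counted above. Hk2, the inducible hexokinase, stood at 112 FPKM under OGD and 121 FPKM under OGD+Oba, against 25.4 FPKM in normoxia, a difference of 2.15 ± 0.12. Pfkfb3, which makes the activator of phosphofructokinase, stood at 12.1 and 11.98 FPKM in the OGD and OGD+Oba libraries, against 3.96 FPKM in normoxia, a difference of 1.39 ± 0.17. The phosphofructokinase subunit Pfkl and the pyruvate dehydrogenase kinase Pdk1 rose less, by 0.61 and 0.38, and neither was called against the 3 normoxia libraries. Pdk1 was also not called without the OGD+Oba library of 3 h or without the libraries of either other time.

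Glycogen genes rose together: all 4 tested members were called higher, with a median of 1.29. Beside Ppp1r3c, the second glycogen-targeting subunit, Ppp1r3b, stood at 12.6 and 13.5 FPKM in the OGD and OGD+Oba libraries, against 2.54 FPKM in normoxia, a difference of 1.99 ± 0.18 (limma, adjusted p = 7e-05). Phosphoglucomutase, Pgm2 in the table, and the glycogen synthase Gys1 were nearer to normoxia, with differences of 0.59 and 0.48, and both lost their call against the 3 normoxia libraries. Gys1 also lost it without the OGD+Oba library.

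Lipid droplet genes were led by Hilpda, an inhibitor of lipolysis induced by hypoxia and the most abundant HIF-1 target of the table. It stood at 1351 FPKM under OGD and 1203 FPKM under OGD+Oba, against 331 FPKM in normoxia, a difference of 1.94 ± 0.11 (limma, adjusted p = 6.88e-06). The phosphatidate phosphatases Lpin1 and Lpin2 rose by 0.84 and 0.85 and the droplet coat gene Plin3 by 0.39, which made 4 of 5 tested members higher, with a median of 0.84. Acot1, an acyl-CoA thioesterase, was not called, at 4.17 and 5.03 FPKM in the OGD and OGD+Oba libraries, against 4.15 FPKM in normoxia. Lpin2 and Plin3 lost their call against the 3 normoxia libraries, and Plin3 also with median-ratio scaling.

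Txnip fell more than any other gene that is not a predicted one. This arrestin, which limits glucose uptake and binds thioredoxin (gene 56338, chromosome 3, 96557957 to 96561857), stood at 43.8 FPKM under OGD and 37.7 FPKM under OGD+Oba, against 486 FPKM in normoxia, a difference of -3.55 ± 0.08 (limma, adjusted p = 1.85e-07). Its paralog Arrdc4, also glucose-responsive, fell by 0.67 ± 0.18 on the log2 scale (limma, adjusted p = 0.0143), with 7.72 and 7.65 FPKM in the OGD and OGD+Oba libraries, against 12.9 FPKM in normoxia. The other 2 tested members of that list went the other way. Arrdc3 stood at 28.8 and 33.1 FPKM in the OGD and OGD+Oba libraries, against 7.79 FPKM in normoxia, and Klf10, a Krüppel-like factor, at 102 and 99.9 FPKM, against 41.8 FPKM in normoxia. The list thus held 2 members higher and 2 lower, with a median of 0.29. The normoxia library of 1 h held 31.5 FPKM of Arrdc3, within the range of the deprived libraries of 3 h, and Arrdc3 and Arrdc4 lost their calls against the 3 normoxia libraries.

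Of 12 tested genes of growth factor withdrawal and FOXO, 7 were called higher and 1 lower, with a median of 0.96. The authors give 10 of the 12 as higher and 2 as lower at 6 h. Among the 7 are Cited2, also a HIF-1 target counted above, and Gabarapl1, which the list of autophagy genes also holds. Depp1, a FOXO target of autophagy and redox control, stood at 105 FPKM under OGD and 78.6 FPKM under OGD+Oba, against 10.1 FPKM in normoxia, a difference of 3.04 ± 0.18 (limma, adjusted p = 6.88e-06). The cyclin Ccng2 rose by 1.71, the cyclin-dependent kinase inhibitor Cdkn1b by 1.62, Gadd45b by 1.48 and Foxo3 itself by 1.37. Sgk1, a kinase named for its induction by serum, stood at 111 FPKM under OGD and 106 FPKM under OGD+Oba, against 404 FPKM in normoxia, a difference of -1.89 ± 0.08 (limma, adjusted p = 1.88e-06). The members not called were Bcl6, Bcl2l11, Ccnd1 and Klhl24. Ccnd1, cyclin D1 of the G1 phase, stood at 93.5 and 88.2 FPKM in the OGD and OGD+Oba libraries, against 102 FPKM in normoxia.

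Stress genes under ATF4 and CHOP gave 5 called higher of 6 tested and none lower, with a median of 1.19. The list holds 41 genes, and the authors give 5 of the 6 tested as higher and 1 as lower at 6 h. Ddit4, an inhibitor of mTORC1 that is also a HIF-1 target, stood at 371 FPKM under OGD and 314 FPKM under OGD+Oba, against 60.5 FPKM in normoxia, a difference of 2.48 ± 0.10 (limma, adjusted p = 1.66e-06). Ddit3, which encodes CHOP, stood at 105 and 98.4 FPKM in the OGD and OGD+Oba libraries, against 29.9 FPKM in normoxia, a difference of 1.73. Ppp1r15a, a phosphatase subunit that restores translation, stood at 63.0 and 63.6 FPKM in the OGD and OGD+Oba libraries, against 22.4 FPKM in normoxia. Its normoxia library of 1 h held 70.7 FPKM, more than either deprived library, and its call ended against the 3 normoxia libraries. Chac1, a glutathione-degrading target of ATF4, was not called, at 5.66 and 6.26 FPKM in the OGD and OGD+Oba libraries, against 6.58 FPKM in normoxia.

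Autophagy and mitophagy genes showed smaller differences, with 5 of 8 called higher, none lower and a median of 0.41. All 8 were listed as higher at 6 h, and the count of 5 is close to the 60.1% of such genes called higher at 3 h. Bnip3, a mitophagy receptor under HIF-1, stood at 162 FPKM under OGD and 173 FPKM under OGD+Oba, against 53.7 FPKM in normoxia, a difference of 1.63 ± 0.09 (limma, adjusted p = 6.56e-06). Its relative Bnip3l rose by 0.55, the lysosomal signalling gene Flcn by 1.01 and the Atg8 family gene Gabarapl1 by 0.47. Sqstm1, the cargo receptor p62, stood at 471 and 501 FPKM in the OGD and OGD+Oba libraries, against 405 FPKM in normoxia, which was called at 0.26 ± 0.07 (limma, adjusted p = 0.0148). The Sqstm1 call ended in 6 of the 16 alternatives, both scalings among them, and that of Bnip3l and Gabarapl1 against the 3 normoxia libraries.

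Immediate early genes differed in opposite directions at 1 h and 3 h. At 3 h 16 of 19 tested members were called higher and 1 lower, with a median of 0.98, while at 1 h their median was -0.89. Egr1, a zinc finger transcription factor, stood at 86.5 FPKM under OGD and 76.0 FPKM under OGD+Oba at 3 h, against 5.65 FPKM in normoxia, a difference of 3.63 ± 0.14 (limma, adjusted p = 1.66e-06). At 1 h it stood at 11.4 FPKM under OGD and 13.6 FPKM under OGD+Oba, against 179 FPKM in normoxia. The order of deprived and normoxia libraries was thus reversed between the times: the normoxia value at 3 h was the lowest of the 6 and that at 1 h the highest.

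The same reversal was seen in other members. Fos, a subunit of AP-1, stood at 25.4 and 22.2 FPKM in the OGD and OGD+Oba libraries of 3 h, against 3.89 FPKM in normoxia, a difference of 2.34 ± 0.28, and at 13.4 and 25.3 FPKM in those of 1 h, against 106 FPKM in normoxia. Atf3, a stress-induced repressor, stood at 104 and 112 FPKM in the OGD and OGD+Oba libraries of 3 h, against 31.9 FPKM in normoxia of 3 h and 224 FPKM in normoxia of 1 h. Ier3, a survival gene, differed by 2.86 ± 0.13 (limma, adjusted p = 2.27e-06), with 299 FPKM under OGD and 266 FPKM under OGD+Oba, against 38.0 FPKM in normoxia, and both deprived values lay above all 3 normoxia libraries. Junb did so as well, at 180.1 and 152 FPKM in the OGD and OGD+Oba libraries, against 52.4 FPKM in normoxia. The member called lower was Plk3, a stress kinase, at 20.0 and 23.0 FPKM in the OGD and OGD+Oba libraries, against 41.5 FPKM in normoxia.

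Deprived libraries of 3 h lay beyond all 3 normoxia libraries for 12 of the 19 immediate early genes, beside 441 of the 580 tested genes (76%). Egr1, Fos, Atf3, Dusp1 and Dusp5 were not among the 12, and their calls ended against the 3 normoxia libraries, where 10 members were called higher and 1 lower. For Egr1 the difference was then 1.78 ± 1.20 (limma, adjusted p = 0.213), and for Fos 0.83 ± 1.20 (adjusted p = 0.544). MAPK feedback genes, most of them phosphatases that switch off the kinases above the immediate early genes, had 4 of 5 called higher and none lower, with a median of 0.91. Map3k1 rose by 1.59 and Dusp4 by 1.29, and both lay above all 3 normoxia libraries. Dusp1, the most abundant, stood at 227 and 242 FPKM in the OGD and OGD+Oba libraries, against 153 FPKM in normoxia of 3 h and 303 FPKM in normoxia of 1 h.

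**Figure D3:**
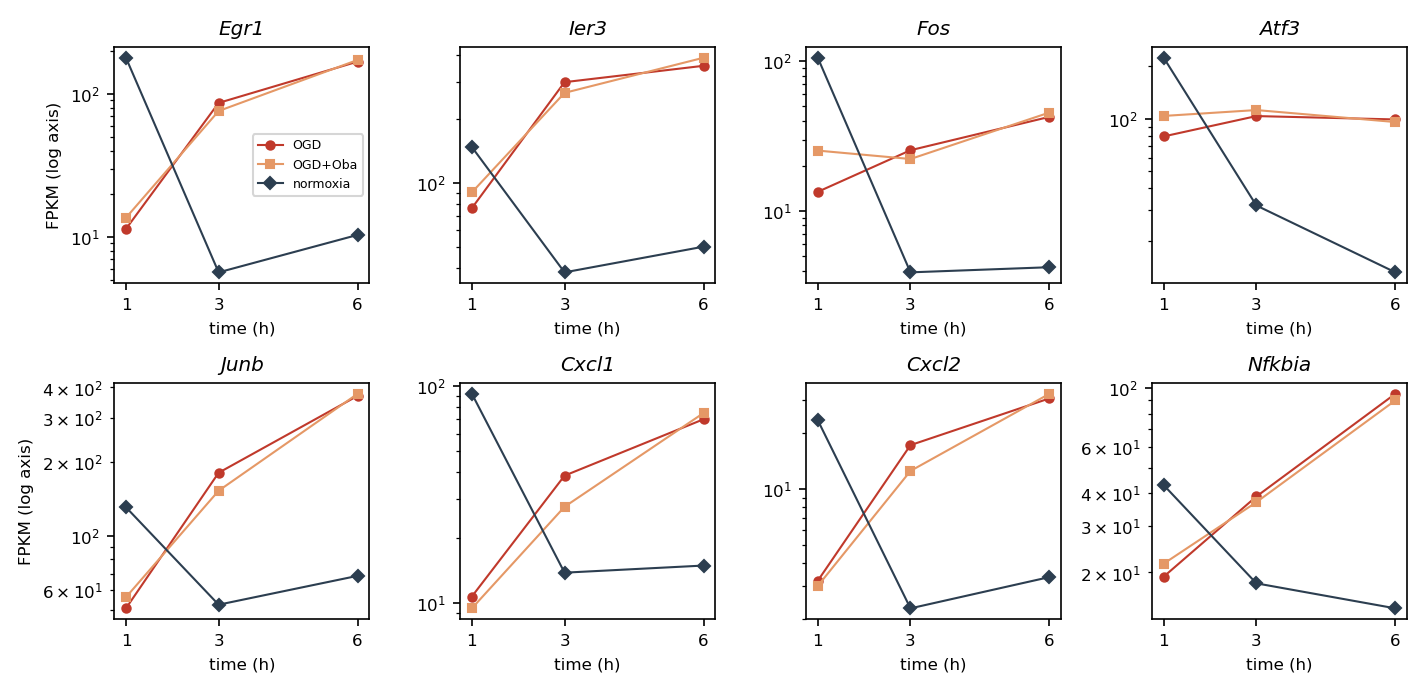
FPKM (log axis) of 6 early and 2 chemokine genes at 1, 3 and 6 h in the OGD, OGD+Oba and normoxia series (1 library per point). In each panel the normoxia line starts highest at 1 h and falls below both deprived lines at 3 h, as for Egr1 with 179 FPKM in normoxia at 1 h and 5.65 FPKM at 3 h.

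Inflammatory genes under NF-kB were mixed, with 7 of 11 called higher and 3 lower and a median of 0.92 at 3 h, beside -1.04 at 1 h. Cxcl2, a neutrophil chemokine, stood at 17.2 FPKM under OGD and 12.5 FPKM under OGD+Oba, against 2.28 FPKM in normoxia, a difference of 2.26 ± 0.20 (limma, adjusted p = 6.41e-05). Cxcl1, its close relative, stood at 38.5 and 27.7 FPKM in the OGD and OGD+Oba libraries, against 13.8 FPKM in normoxia, a difference of 1.19. The NF-kB inhibitor Nfkbia rose by 1.02 and the ubiquitin-editing inhibitor Tnfaip3 by 0.91. Ccl2, a monocyte chemokine, went the other way, at 19.6 and 18.6 FPKM in the OGD and OGD+Oba libraries, against 48.8 FPKM in normoxia, and so did the adhesion gene Icam1, at 6.99 and 6.23 FPKM, against 10.7 FPKM in normoxia. The third was Cxcl10, with a difference of -0.56. Against the 3 normoxia libraries 2 members were called higher and none lower. Normoxia of 1 h held 91.9 FPKM of Cxcl1 and 23.5 FPKM of Cxcl2, above both deprived libraries of 3 h.

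Clock genes rose in 6 of 8 tested members, none was called lower, and the median was 1.32. Bhlhe40, a clock repressor that is also a HIF-1 target, stood at 546 FPKM under OGD and 539 FPKM under OGD+Oba, against 116 FPKM in normoxia, a difference of 2.21 ± 0.07 (limma, adjusted p = 6.76e-07). Nr1d1, the heme-binding repressor REV-ERB alpha, stood at 21.95 and 20.1 FPKM in the OGD and OGD+Oba libraries, against 2.54 FPKM in normoxia, a difference of 2.63 ± 0.15 (limma, adjusted p = 6.56e-06). Nfil3 and Ciart, which also repress clock output, rose by 1.65 and 1.48. Cry2, a core clock repressor, was not called, with a difference of 0.12. Nfil3 lost its call against the 3 normoxia libraries, of which that of 1 h held 17.5 FPKM beside 19.7 and 20.7 FPKM in the OGD and OGD+Oba libraries of 3 h.

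The 3 tested genes of the dioxin receptor all rose. Cyp1a1, the detoxifying oxidase that is its classical target, stood at 124 FPKM under OGD and 122 FPKM under OGD+Oba, against 26.4 FPKM in normoxia, a difference of 2.18 ± 0.13 (limma, adjusted p = 6.88e-06). The receptor Ahr stood at 14.5 and 14.98 FPKM in the OGD and OGD+Oba libraries, against 6.96 FPKM in normoxia, and its feedback gene Tiparp at 42.0 and 57.8 FPKM, against 16.1 FPKM in normoxia. In each of the 3 both deprived values lay above all 3 normoxia libraries.

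Growth genes were few in the table. The 4 tested members of the MYC list were MYC antagonists, of which Mxi1, Mnt and Mxd1 rose by 1.72, 1.29 and 1.17 and Mxd3 fell by 0.70 on the log2 scale, with a median of 1.23. Among 4 tested genes of G1 and S, Cdkn1b and Cdkn1a, both inhibitors of cyclin-dependent kinases, were called higher and Cdc25a, a phosphatase that starts S phase, lower, with a median of 0.05. Cdkn1b stood at 51.4 and 49.2 FPKM in the OGD and OGD+Oba libraries, against 15.6 FPKM in normoxia. Cdkn1a was near normoxia, at 235 and 258 FPKM in the OGD and OGD+Oba libraries, against 204 FPKM in normoxia, and its call ended in 6 of the 16 alternatives.

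Of 5 tested genes of G2 and mitosis 4 fell and 1 rose, with a median of -0.68. The list holds 51 genes, and the authors give 4 of the 5 tested as lower and 1 as higher at 6 h. The cyclin Ccnf stood at 12.1 FPKM under OGD and 13.1 FPKM under OGD+Oba, against 26.4 FPKM in normoxia, a difference of -1.01 ± 0.15 (limma, adjusted p = 0.00108). The mitotic kinase Aurka stood at 42.1 and 42.8 FPKM in the OGD and OGD+Oba libraries, against 63.1 FPKM in normoxia. The DNA helicase Pif1 and the kinesin Kif14 fell by 0.69 and 0.68 on the log2 scale, and the cytoskeletal linker Gas2l3 rose by 0.58. Kif14 was not called without the OGD library of 3 h, nor Gas2l3 without the OGD+Oba library.

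YAP and TEAD targets, read out of a pathway that senses adhesion, tension and serum, had 4 of 5 tested members called lower and 1 higher. Their median was -1.08. The list holds 26 genes, and the authors give 4 of the 5 tested as lower and 1 as higher at 6 h. Ccn2, a secreted matricellular protein (gene 14219, chromosome 10, 24595442 to 24598683), stood at 206 FPKM under OGD and 203 FPKM under OGD+Oba, against 1108 FPKM in normoxia, a difference of -2.43 ± 0.07 (limma, adjusted p = 5.09e-07). Amotl2, an angiomotin that binds YAP, stood at 10.99 and 11.4 FPKM in the OGD and OGD+Oba libraries, against 42.1 FPKM in normoxia, a difference of -1.83 ± 0.14. Nuak2, a kinase, and Ankrd1, a muscle ankyrin repeat gene, fell by 1.08 and 0.91 on the log2 scale. The member that rose was Gadd45b, which the list of FOXO targets also holds. The deprived values of the 4 that fell lay below all 3 normoxia libraries.

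Of 3 tested fibrinolysis and matrix genes 2 were called lower and 1 higher. Plat, the tissue plasminogen activator that starts clot lysis, stood at 98.3 FPKM under OGD and 101 FPKM under OGD+Oba, against 329 FPKM in normoxia, a difference of -1.71 ± 0.09 (limma, adjusted p = 3.97e-06). Mmp10, the protease stromelysin-2, stood at 1.18 and 1.91 FPKM in the OGD and OGD+Oba libraries, against 6.50 FPKM in normoxia, but normoxia of 1 h held 1.71 FPKM and the call ended against the 3 normoxia libraries. The median of the list was -1.57.

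Of the 37 genes in the list of junction genes 4 were tested, and the authors give 1 of them as higher and 3 as lower at 6 h. At 3 h 1 was called higher and 3 lower, with a median of -0.78. Cldn4 rose by 1.43 ± 0.08 (limma, adjusted p = 6.56e-06). Cldn12 stood at 12.9 and 15.3 FPKM in the OGD and OGD+Oba libraries, against 28.6 FPKM in normoxia, and fell by 0.98 on the log2 scale. Cldn9 fell by 0.64, and Marveld2, which encodes the junction protein tricellulin, by 0.92. Marveld2 lost its call against the 3 normoxia libraries. Hmox1, the heme oxygenase, rose by 1.34 ± 0.10, with 75.7 and 81.3 FPKM in the OGD and OGD+Oba libraries, against 30.5 FPKM in normoxia. Slc40a1, the iron exporter, fell by 0.69, which with the uncalled Tfrc gave 1 higher and 1 lower of 3 in the list of heme and iron, at a median of 0.09.

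Zinc finger genes, many of them repressors of the KRAB family, numbered 23 tested, of which 2 were called higher and 8 lower, with a median of -0.47. The authors list 16 of the 23 as lower at 6 h, so the count of 8 is no more than the choice of the table would give. Zfp54 stood at 4.91 and 4.66 FPKM in the OGD and OGD+Oba libraries, against 10.7 FPKM in normoxia, a difference of -1.01 ± 0.17 (limma, adjusted p = 0.00212). Zfp760 fell by 0.89 on the log2 scale but was not called without the OGD library of 3 h. Zfp395, also a HIF-1 target, rose by 1.27 and Zfp292 by 0.97, and Zfp292 lost its call against the 3 normoxia libraries and without the OGD+Oba library of 3 h. Regulators of small GTPases were balanced, with 3 of 10 called higher, 3 lower and a median of -0.02. Rnd3, an antagonist of RhoA signalling, stood at 5.66 and 5.39 FPKM in the OGD and OGD+Oba libraries, against 14.9 FPKM in normoxia, a difference of -1.28 ± 0.18, and Arhgap29 rose by 1.27 ± 0.17 (limma, adjusted p = 0.000646).

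**Figure D4:**
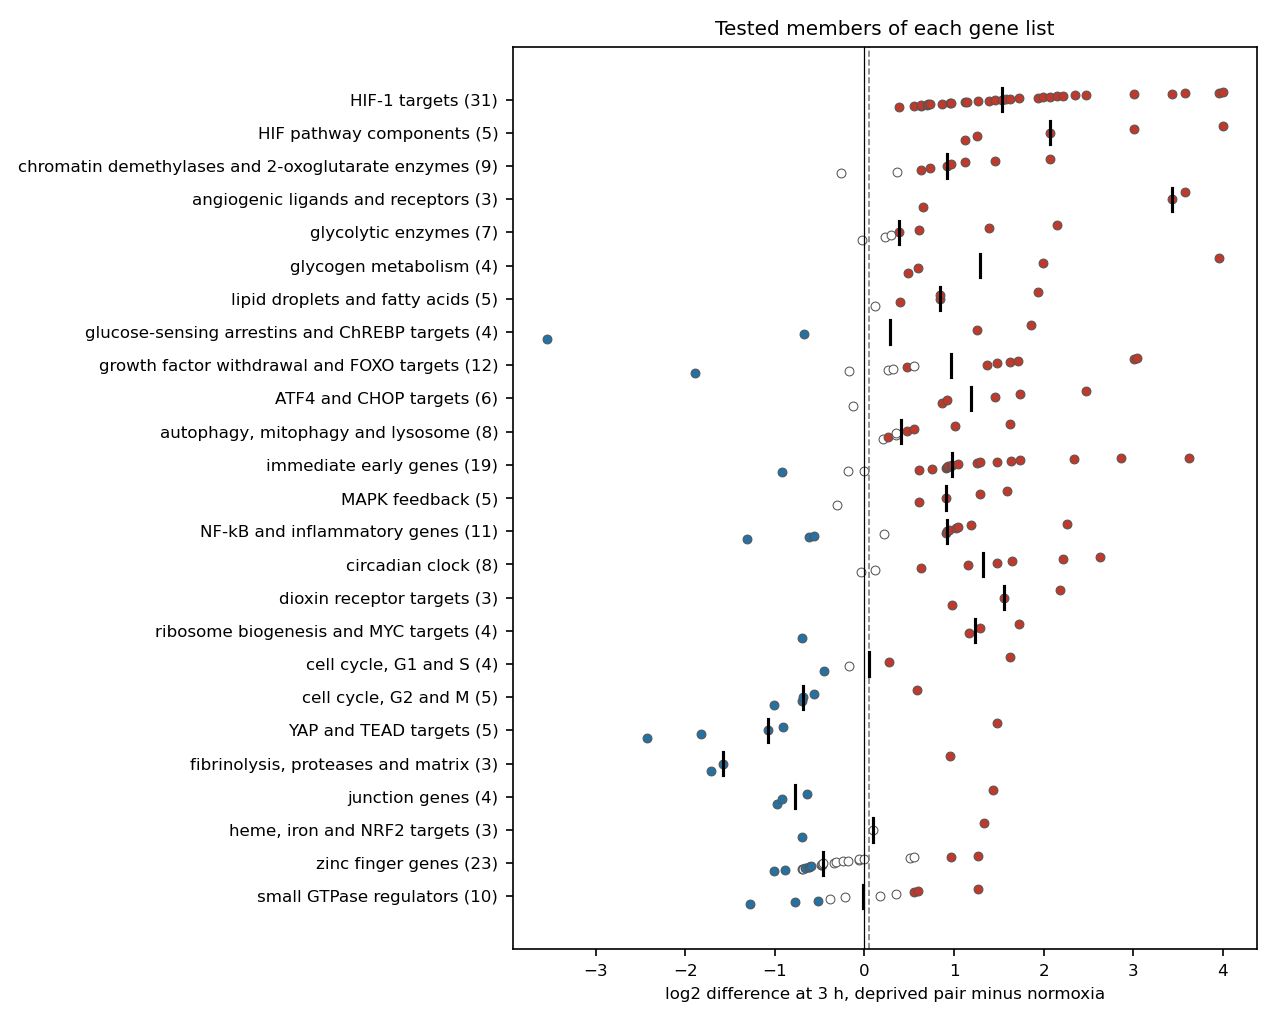
Log2 difference at 3 h, deprived pair minus normoxia, of each tested member of 25 gene lists (number tested in brackets). Red points were called higher, blue lower and open ones not called by limma; the short bar is the median of the list and the dashed line the median of all tested genes, 0.05. All 31 HIF-1 targets lie to the right of 0, and 4 of the 5 YAP and TEAD targets to the left. The dashed line pools genes listed as higher and as lower at 6 h, whose own medians were 0.64 and -0.62.

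Among the 12 highest genes were also some outside the lists described above. Prdm1, the transcriptional repressor Blimp-1, stood at 14.3 FPKM under OGD and 18.04 FPKM under OGD+Oba, against 1.64 FPKM in normoxia, a difference of 2.69 ± 0.20 (limma, adjusted p = 3.31e-05). Pnrc1, a nuclear receptor coactivator, stood at 122.6 and 115 FPKM in the OGD and OGD+Oba libraries, against 17.9 FPKM in normoxia, a difference of 2.66 ± 0.15. Smtnl2, a smoothelin-like gene, was nearly silent in normoxia at 0.09 FPKM, and stood at 5.39 FPKM under OGD and 6.31 FPKM under OGD+Oba. All 3 lay above every normoxia library.

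On the lower side, Apobec1, a cytidine deaminase that edits apolipoprotein B mRNA, stood at 9.81 FPKM under OGD and 10.96 FPKM under OGD+Oba, against 46.2 FPKM in normoxia, a difference of -2.05 ± 0.16 (limma, adjusted p = 3.79e-05). H60b and Ulbp1, both ligands of the natural killer receptor NKG2D, fell together. H60b stood at 4.72 and 6.06 FPKM in the OGD and OGD+Oba libraries, against 17.4 FPKM in normoxia, and Ulbp1 at 12.5 and 16.7 FPKM, against 39.7 FPKM in normoxia. Tsku, a secreted leucine-rich repeat protein, Tubb3, a beta tubulin, and Mmp24, a membrane-bound protease, fell by 1.43, 1.39 and 1.38 on the log2 scale. All 6 lay below every normoxia library.

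Other abundant genes were lower. Tnfrsf12a, the receptor of TWEAK, stood at 211 and 205 FPKM in the OGD and OGD+Oba libraries, against 461 FPKM in normoxia, a difference of -1.14 ± 0.10. Arf2, an ADP-ribosylation factor, stood at 202 and 210.4 FPKM in the OGD and OGD+Oba libraries, against 357 FPKM in normoxia. Normoxia of 1 h held 205 FPKM of Arf2, and its call ended against the 3 normoxia libraries.

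The deprivation effect differed between 3 h and 1 h in many genes. By the test of the difference itself, the effect at 3 h minus that at 1 h, 215 of 580 genes (37.1%) were called, 153 higher (26.4%) and 62 lower (10.7%). The lower count was 111 without the OGD+Oba library of 3 h and 115 with median-ratio scaling. Of the 190 genes called higher at 3 h, 150 had an effect called above that at 1 h, none was called higher at 1 h and 15 were called lower there. Of the 166 called lower at 3 h, 61 had an effect called below that at 1 h, and 7 were already called lower at 1 h: Ankrd1, Plk3, Ccn2, Plat, Ccl2, Sgk1 and Txnip. Txnip stood at 289 FPKM under OGD and 242 FPKM under OGD+Oba at 1 h, against 676 FPKM in normoxia, and its effect at 3 h went further by -2.19 ± 0.12 (limma, adjusted p = 1.64e-05). The largest differences between the times were those of Egr1, Cxcl2, Fos and Cxcl1, at 7.37, 4.83, 4.79 and 4.26, where the 1 h effect was negative.

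Among the HIF-1 targets, 28 of 31 had an effect called above that at 1 h, where their median was 0.01. Bnip3l was among them, and Pdk1, Rora and Higd1a, a mitochondrial gene, were not. The immediate early genes gave 18 of 19, all but Plk3. At 6 h all 190 genes called higher kept their sign, and 164 of the 166 called lower, with a median of 62.8% and 66.0% of the 6 h log2 difference. Since the table was chosen at 6 h, that is a description of chosen genes. The 3 h difference was the larger in 8 of the genes called higher, among them Cyp1a1, Nfil3 and Hes1, and in 17 of those called lower, among them Ccn2, H60b and Tsku.

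**Figure D5:**
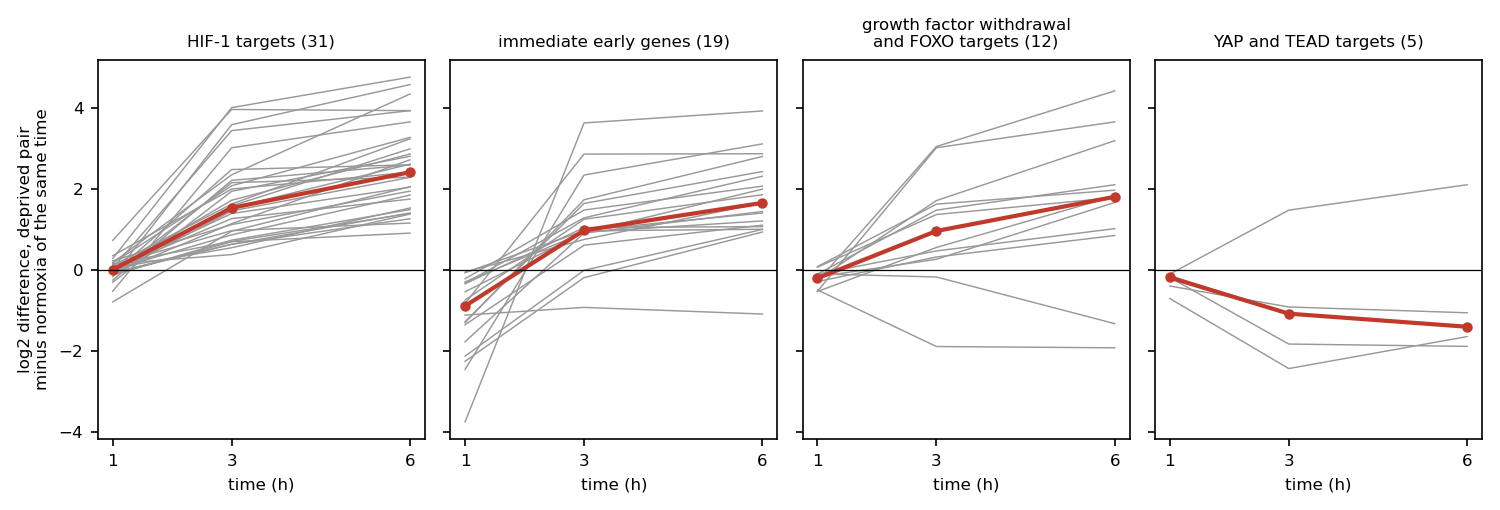
Log2 difference of the deprived pair from the normoxia library of the same time, at 1, 3 and 6 h, for the tested members of 4 lists (thin lines) and their median (thick line). HIF-1 targets start at a median of 0.01 and stand at 1.53 at 3 h, and immediate early genes start at -0.89 and stand at 0.98; values at 6 h describe genes chosen at that time.

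The shares called differed among the cellular components that the authors annotate in the table. Of 53 tested mitochondrial genes 28 (52.8%) were called higher and 5 (9.43%) lower, and of 244 nuclear genes 110 (45.1%) and 56 (23%), close to the 44.4% and 22.6% of 243 cytoplasm genes. Of 17 chromatin genes 10 were higher and 1 lower. Integral membrane genes gave 25 of 115 (21.7%) higher and 43 (37.4%) lower, while the wider term membrane, with 201 genes, gave 29.9% higher and 30.8% lower. Cell surface genes gave 6 and 12 of 24, and Golgi genes 10 and 15 of 36. The backgrounds for these counts are 32.8% higher and 28.6% lower, a gene can carry several terms, and no test of the difference between components was made. All 190 genes called higher were listed as higher at 6 h, and 164 of the 166 called lower were listed as lower. The shares thus depend on how many genes of a component were chosen in each direction at 6 h, and the components were not split by that direction.

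Promoter windows of 250 bases before RefSeq starts were found for 162 of the genes called higher (210 windows) and 130 of those called lower (159 windows). The HIF core ACGTG, on either strand, stood in 31.9% of windows of genes called higher and 13.8% of those of genes called lower, beside 20.8% of windows of tested genes not called and 16.6% of all 32851 mouse windows. GCGTG gave 53.8%, 38.4%, 37.7% and 28.2% in the same order. The windows of the tested HIF-1 targets, 37 in number, held ACGTG in 54.1% and GCGTG in 51.4%. Genes called higher outside the HIF-1 list held ACGTG in 27.2% of their windows and GCGTG in 54.3%. The cyclic AMP response core TGACGT, which overlaps ACGTG in the letters ACGT, stood in 11% of windows of genes called higher and 3.77% of those called lower, and in 7 of 17 windows of immediate early genes. The GC box GGGCGG was also more frequent in the genes called higher, at 66.2% against 50.3% in the genes called lower, and the windows were not matched for base composition. These shares describe letters in a short window, and the part of base composition in them was not tested.

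Among these genes, chosen for a difference between OGD and normoxia at 6 h, both deprived libraries gave nearly the same picture. The median size of the difference between OGD+Oba and OGD at 3 h was 0.14 on the log2 scale, against 0.62 for that between the deprived pair and normoxia, and 7 genes (1.21%) lay at least 2-fold apart. These 7 are Gm10147, Gm10487, Zfp967, Gm21293, Gm14296, H2ac19 and Gm8764, named after their values were seen. For 6 of them GENCODE transcripts were matched. At least 61.5% of the 31-base words of each of these 6 also occur in transcripts of other genes. Among genes averaging 5 FPKM or more at 3 h, Tet2, Ogt and Fam71f2 were the highest and Clybl, Cxcl1 and Cxcl2 the lowest in OGD+Oba against OGD. Fam71f2 stood at 8.92 FPKM under OGD+Oba and 5.02 FPKM under OGD, beside 8.01 FPKM in normoxia, and Clybl, a mitochondrial lyase, at 4.53 FPKM under OGD+Oba and 7.08 FPKM under OGD, beside 3.49 FPKM in normoxia. Tet2, Fam71f2 and Clybl were not called against normoxia. With 1 library each, the difference between OGD+Oba and OGD has no replicate check. Genes that did not differ between OGD and normoxia at 6 h are left out, so an effect of obacunone on them was not tested.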

How the data were processed

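RNA-seq of 9 libraries was deposited as FPKM per gene, 1 value per gene and library, in the authors' table. Reads were aligned to GRCm38 with HISAT2 2.0.4, per the submitters' processing notes; the step that made FPKM is not given in the sources used here. The authors' deposited log2 ratios of OGD to normoxia at 6 h were used only to describe how the table was chosen. Depth is unknown, so the counting error of low values is not measured.

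Genes averaging 1 FPKM or more across all 9 libraries entered the test as log2(FPKM + 1) with limma 3.58.1 in R 4.3.3, with trend. The model held a normoxia level and a deprivation effect per time and 1 obacunone effect, with 2 residual and 5.48 prior degrees of freedom. P-values were adjusted by Benjamini-Hochberg over the 580 genes, with a threshold of 0.05. A fold on this scale understates the change of low genes. The procedure was tested on simulated data with independent noise of the same spread in all 9 libraries for each gene. That run could not check whether a normoxia library varies like the deprived pairs.

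The genes and lists were chosen with earlier results of these data known. Genes named are the 12 highest and 12 lowest at least 2-fold in both deprived libraries, up to 4 of largest difference in each of 26 lists, the 3 highest and 3 lowest for OGD+Oba against OGD, the 4 highest and 4 lowest for the effect at 3 h minus that at 1 h, and the 5 most abundant called in each direction, with predicted genes passed over among the extreme genes and in the OGD+Oba comparison. Some genes that this rule takes are not reported here. A search for genes 2-fold in opposite directions at 3 h and 6 h, with the 6 h difference averaged over the deprived pair on log2(FPKM + 1), found none. By the authors' own 6 h ratio of OGD to normoxia, Ccl2 would be such a gene, as it was 2-fold lower in both deprived libraries at 3 h. Other genes named, among them Junb, Icam1, Nfkbia, Tnfaip3, Cxcl10, Ankrd1, Aurka and the list members that were not called, were chosen after their values were seen. Alternatives changed the pseudocount, floor, scaling, limma settings, libraries, obacunone term, normoxia libraries and predicted genes. One more, chosen after seeing the data, dropped any gene of whose 31-base words 50% or more also occur in transcripts of other genes. The words were taken from GENCODE mouse transcripts, matched by gene symbol. Gene positions and promoters are from RefSeq (GRCm38.p6), with a position for 671 of 675 genes.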

Additional observations from a re-analysis of the deposited data

Results flagged for a closer look

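The effect of deprivation differed between 3 h and 1 h, by limma on the difference itself with Benjamini-Hochberg adjustment, in 153 genes upward and 62 downward, the second count being 111 without the OGD+Oba library of 3 h and 115 with median-ratio scaling. Among the genes named, the effect at 3 h minus that at 1 h on the log2 scale was 7.37 for Egr1, 4.83 for Cxcl2, 4.79 for Fos, 4.26 for Cxcl1, 3.68 for Ier3 and 3.54 for Cited2. It was 3.03 for Atf3, 2.92 for Junb, 2.91 for Hes1, 2.68 for Dusp5, 2.32 for Tnfaip3, 2.06 for Nfkbia, 1.99 for Klf10 and 1.96 for Dusp1. It was negative for Txnip, at -2.19, Apobec1, at -2.14, Zfp967, at -1.77, and Ccn2, at -1.73. All of the 31-base words of Zfp967 also occur in transcripts of other genes. The normoxia libraries of the 2 times differ in these genes as well, and the part of that difference in the values was not tested.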

How the results depend on the processing

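Over 16 alternatives the genes called at 3 h numbered 127 to 213 higher and 122 to 184 lower. Without 1 deprived library of 3 h they numbered 180 to 213 higher and 142 to 172 lower. The strictest reading of normoxia, against the mean of all 3 normoxia libraries, called 257 genes, of which 243 were also among the 356, and ended the calls of 30 named genes. Of 102 named genes called, 68 kept their call in every alternative that tested them; a floor of 5 FPKM left 101 of the 109 named genes tested. For the effect at 3 h minus that at 1 h, the lower genes numbered 115 with median-ratio scaling, and without 1 deprived library of 3 h 83 to 111, with 164 to 183 higher. Genes at least 2-fold in both deprived libraries became 153 higher and 120 lower at 1.5-fold, 60 lower with a pseudocount of 0.1, and 32 higher and 13 lower when the size had to hold against each of the 3 normoxia libraries. Differences that were not called turned round in 3 genes: leaving out 1 deprived library gave -0.97 to 0.44 for Tet2, -0.77 to 0.33 for Fam71f2 and -0.31 to 1.03 for Ogt, and the 3 normoxia libraries together brought Ogt to -0.0025 and Fam71f2 to 0.19. Fits without 1 deprived library kept the obacunone term, estimated then from the other times. Their values are thus not the plain differences of the remaining library from normoxia. Why the differences turned round was not tested. The median over all tested genes was 0.05 as deposited, 0.02 with median-ratio scaling and 0.09 with the authors' scaling. No paired analysis was possible because each group holds 1 library and the labels carry no replicate numbers. With 1 normoxia library per time, its own error enters every difference of 3 h and cannot be measured at that time.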

Other observations

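The genes given here were picked out after their values were seen. Sox9, a transcription factor of progenitor cells, stood at 64.0 FPKM under OGD and 62.0 FPKM under OGD+Oba, against 12.2 FPKM in normoxia, a log2 difference of 2.27 ± 0.12 (SE; limma, adjusted p = 4.3e-06), and lay above all 3 normoxia libraries. Irf2bp2, a transcriptional corepressor, stood at 36.6 and 31.6 FPKM in the OGD and OGD+Oba libraries, against 10.2 FPKM in normoxia, and Sap30, of the SIN3 complex, at 63.8 and 53.3 FPKM, against 20.1 FPKM in normoxia. Hes1, a repressor under Notch, stood at 33.2 and 27.9 FPKM in the OGD and OGD+Oba libraries, against 7.14 FPKM in normoxia of 3 h and 28.7 FPKM in normoxia of 1 h, and was not called against the 3 normoxia libraries (limma, adjusted p = 0.0778).

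Mat2a, which makes S-adenosylmethionine, stood at 117 FPKM under OGD and 128 FPKM under OGD+Oba, against 288 FPKM in normoxia, a difference of -1.23 ± 0.14 (SE; limma, adjusted p = 0.000287). Amd1, which decarboxylates it for polyamine synthesis, stood at 37.8 and 36.5 FPKM in the OGD and OGD+Oba libraries, against 97.4 FPKM in normoxia, and shares 82.8% of its 31-base words with transcripts of other genes. Both epithelial genes looked at further differed too, in opposite directions: the transcription factor Elf3 stood at 148 and 149.6 FPKM in the OGD and OGD+Oba libraries, against 91.5 FPKM in normoxia, and the keratin Krt6a at 35.3 and 42.1 FPKM, against 71.4 FPKM in normoxia, though Krt6a was not called against the 3 normoxia libraries. The predicted gene Gm14819 had the largest negative difference, at 0.06 FPKM under OGD and listed at 0 under OGD+Oba, against 41.9 FPKM in normoxia, and all of its 31-base words occur in transcripts of other genes.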
